A study of Mus musculus with 7 samples.

Results

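The Myc, Max and Myb genes were read from RNA sequencing of whole mouse spleens. The set was chosen by gene symbol and holds 10 of the 24062 genes in the deposited tables, and all 10 passed the filter on low counts. They are Myc and Mycn, their partner Max, the Max-binding antagonists Mxd1, Mxd3, Mxd4 and Mxi1, and the Myb family of Myb, Mybl1 and Mybl2. The mutant group is 3 enlarged spleens of mice labelled Vav1-iCre;Brca1F22-24/F22-24, in which a Cre recombinase driven by Vav1 sequence acts in blood cells on a Brca1 allele altered around exons 22 to 24. The wild-type group is 4 spleens labelled Brca1+/+ and C57BL6. All mice were 2 to 3 months old. Recombinase, altered allele and enlargement are stated for the mutant group alone, so their effects cannot be told apart here. Nothing in the labels says how animals were matched, and p-values here reflect only how these 7 spleens vary.

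MYC proteins are transcription factors that bind the DNA string CACGTG, called an E-box, only as a dimer with MAX, and they raise genes of ribosome assembly, nucleotide synthesis and metabolism. MXD proteins and MXI1 compete for MAX and repress the same sites, often as cells leave division. MYB is needed by blood progenitors and by T cells developing in the thymus, while MYBL2 acts with the MuvB complex on genes of mitosis in most dividing cells and MYBL1 is known from male germ cells and germinal centre B cells. In the spleen of an adult mouse, dividing cells include erythroid precursors and activated lymphocytes.

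Library totals were 30660980 to 51680976 counts in mutant and 26889712 to 63612532 in wild type. Brca1 itself stood at 67.6, 47.1 and 42.7 CPM (counts scaled to library size with TMM factors, used throughout for levels) in mutants 1 to 3 and at 46.2, 72.8, 15.7 and 20.2 CPM in wild-type spleens 1 to 4, with overlap (log2 fold change 0.44, SE 0.51, adjusted p = 0.49, edgeR). Counts summed over that gene cannot show the altered exons. Markers of several cell types were also tested, where 28.5% of all genes were called higher and 28.9% lower. Of 12 immature T cell markers, 11 were higher in mutant, with summed levels of 3299.7 to 6106 CPM in mutant and 485 to 622 CPM in wild type. All 10 B cell markers were lower, at 30.3 to 233 CPM summed in mutant against 4089 to 5497 CPM in wild type. Of 12 monocyte and macrophage markers 7 were lower, at 414 to 2245 CPM against 3531 to 4387 CPM in wild type, and of 11 neutrophil markers 4 were lower, at 22.1 to 667 CPM against 700.3 to 1779 CPM in wild type. Thymic epithelium markers summed to 5.98 to 6.77 CPM in mutant and 11.3 to 13.2 CPM in wild type, with 4 of 6 tested lower, 1 higher, and Foxn1 and Krt5 at 0 counts in every library. Markers of B cells, a main cell type of spleen, were thus present in wild type and low in mutant. The count of lower neutrophil markers is near the share over all genes. The macrophage genes Vcam1, Hmox1 and Spic did not pass, and in mutant 1 they stood at 732, 489.5 and 88.0 CPM, within or above the wild-type ranges of 638 to 879, 376 to 599 and 73.3 to 86.3 CPM. Mutants 2 and 3 were below those ranges, at 256 and 129 CPM for Vcam1, 235 and 109 CPM for Hmox1, and 45.3 and 8.66 CPM for Spic. Emr1 and Slc40a1 did not pass either, but both were lower in every mutant spleen than in any wild-type spleen. In a bulk sample, fewer cells of a type and less RNA per cell cannot be told apart.

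Of the 10 genes, Myc, Myb and Mybl2 rose in mutant spleens, Mycn fell, and 6 did not pass edgeR's quasi-likelihood test at a Benjamini-Hochberg adjusted p under 0.05 over 15188 genes. Over all genes tested the same rule called 57.4%, with 28.5% higher and 28.9% lower, so 4 called of 10 is no more than the background share. The same 4 genes were those whose groups did not overlap, with 3 above and 1 below, beside 29.2% and 32.6% of all genes and 61.7% in either direction. The median log2 fold change was 0.60 over the 10 genes and -0.02 over all genes tested. What follows therefore concerns which genes differed and by how much, not whether the set as a whole stood out.

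**Figure D1:**
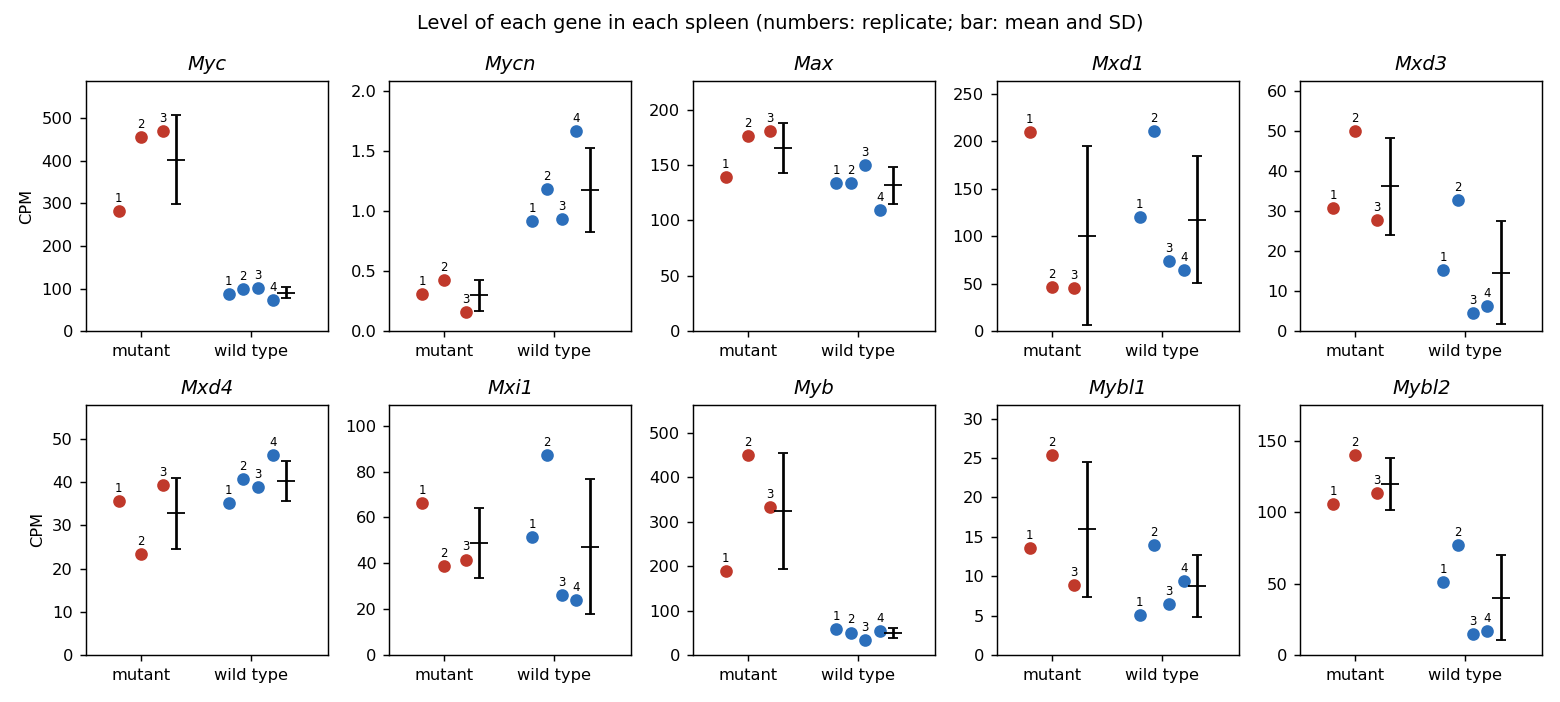
CPM of the 10 genes (vertical axes, each from 0) in 3 mutant and 4 wild-type spleens, with 1 point per spleen numbered by replicate and bars for mean ± SD. Myc, Myb and Mybl2 lie higher in mutant without overlap, Mycn lies lower, and Mxd1 and Mxi1 spread widely within both groups.

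Myc, the family member used by most dividing cells, was 4.44-fold higher in mutant spleens. It lies on chromosome 15 from 61985341 to 61990361 on the plus strand of mm10. It stood at 283, 455 and 470 CPM in mutants 1 to 3, against 86.7, 99.5, 102 and 73.7 CPM in wild-type spleens 1 to 4. Even the lowest mutant value, in mutant 1, was well above the highest wild-type value. Mean levels were 402 ± 104 CPM in mutant and 90.6 ± 13.1 CPM in wild type (SD, n = 3 and 4), and the log2 fold change was 2.15 (SE 0.22, adjusted p = 3.33e-04, edgeR).

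Mycn, the family member typical of embryonic and neural tissue, went the other way at a level near the limit of detection. It lies on chromosome 12 from 12936093 to 12941836 on the minus strand. It had 15, 12 and 5 counts in mutant spleens and 26, 32, 42 and 126 counts in wild-type spleens, or 0.309, 0.423 and 0.163 CPM in mutant and 0.919, 1.18, 0.929 and 1.66 CPM in wild type. Every wild-type spleen was above every mutant spleen, and the log2 fold change was -1.98 (SE 0.42, adjusted p = 0.00538, edgeR). All 4 wild-type libraries met the count minimum of the filter but 2 of 3 mutant libraries did. Mycl, the remaining MYC family gene, also fell, with 1.88, 0.458 and 0.260 CPM in mutant and 13.6, 15.1, 19.8 and 19.0 CPM in wild type (log2 fold change -4.24, SE 0.67, adjusted p = 0.00152, edgeR). In mutant 3 Mycl was also below the count minimum of the filter, which limits the precision of its fold change. Mycl is known from dendritic cells.

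Divided by exon length, which allows levels of different genes to be compared, Myc made up 99.5%, 99.9% and 99.9% of the summed Myc, Mycn and Mycl level in mutants 1 to 3. In wild-type spleens 1 to 4 its share was 89.7%, 89.9%, 87.9% and 83.9%, so the shares did not overlap. The rest of the family level in wild type came mainly from Mycl, at 4.61 ± 0.814 CPM per kb, with Mycn at 0.419 ± 0.124 CPM per kb (SD, n = 4). In mutant the same genes stood at 0.237 ± 0.241 and 0.106 ± 0.0465 CPM per kb (SD, n = 3).

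Max, the partner that every MYC and MXD protein needs, did not pass the test. Max (chromosome 12, 76937269 to 76962248, minus strand) stood at 139, 176 and 181 CPM in mutant spleens and at 134, 133, 150 and 109 CPM in wild type, and mutant 1 fell inside the wild-type range. Its log2 fold change was 0.33 (SE 0.16, adjusted p = 0.112, edgeR). Without mutant 1 it passed, at 0.52 (adjusted p = 0.0161, in a range of 0.0161 to 0.656 over its alternatives). With Max varying little, the level of Myc relative to Max per kb was 1.62, 2.07 and 2.08 in mutant and 0.519, 0.597, 0.546 and 0.540 in wild type. Myc was thus the higher of both in each mutant spleen and the lower of both in each wild-type spleen.

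**Figure D2:**
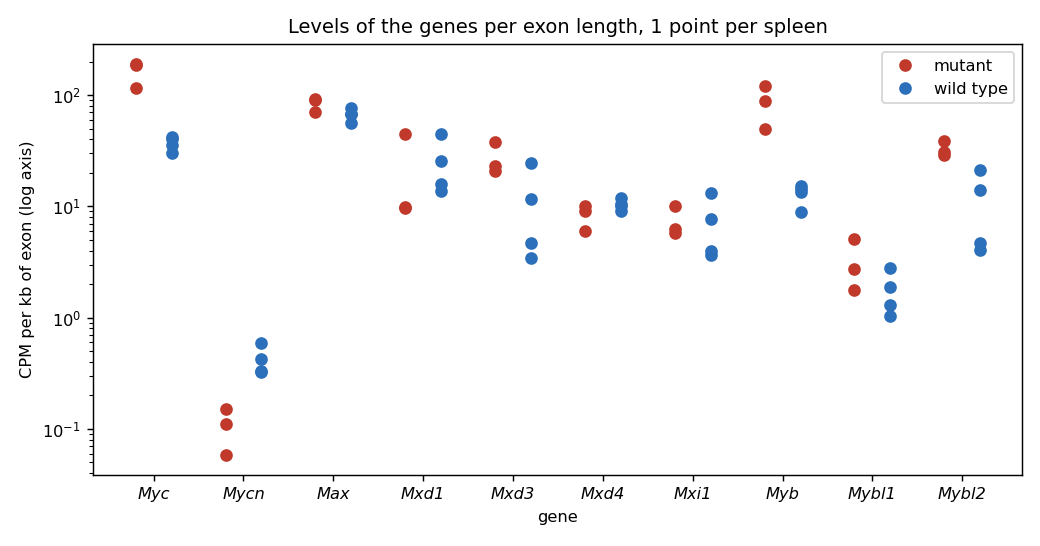
Level per exon length in CPM per kb (log axis) for the 10 genes, 1 point per spleen, mutant left of wild type. In wild type Max is the highest of the 10, and in mutant Myc has the highest mean, at 164 CPM per kb.

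In the order of mean levels per kb, the mutant spleens had Myc at 164, Myb at 85.9, Max at 84.4, Mybl2 at 32.9, Mxd3 at 27.3, Mxd1 at 21.5, Mxd4 at 8.44, Mxi1 at 7.35, Mybl1 at 3.20 and Mycn at 0.106 CPM per kb. Ranges of neighbours in that order overlapped except between Max and Mybl2, between Mxi1 and Mybl1, and between Mybl1 and Mycn. The wild-type order was Max at 67.2, Myc at 37.0, Mxd1 at 25.1, Myb at 13.0, Mxd3 at 11.1, Mybl2 at 11.0, Mxd4 at 10.4, Mxi1 at 7.11, Mybl1 at 1.76 and Mycn at 0.419 CPM per kb. There, ranges were apart only between Max and Myc, between Mxi1 and Mybl1, and between Mybl1 and Mycn. Myb thus stood next to Myc and Max in mutant and among the antagonists in wild type. The lengths come from GENCODE M21, which is not the annotation the reads were counted on, so these levels are approximate.

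None of the 4 antagonists passed edgeR's test, where 15188 genes gave 57.4% called. At an unadjusted p under 0.05 the count was also 0. DESeq2 called 0 of them and limma-voom called Mxd3.

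Mxd1, an antagonist induced as blood cells mature, varied within each genotype by more than between them. Mxd1 (chromosome 6, 86647045 to 86669159, minus strand) stood at 209, 46.2 and 45.6 CPM in mutants 1 to 3 and at 120.1, 211, 73.7 and 64.8 CPM in wild-type spleens 1 to 4. Mutant 1 was level with wild-type 2, and mutants 2 and 3 were below every wild-type spleen. The log2 fold change was -0.22 (SE 0.65, adjusted p = 0.788, edgeR), and it was positive without mutant 2, mutant 3 or wild-type 2.

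Mxi1, a further MAX-binding repressor, also varied widely within each genotype. Mxi1 (chromosome 19, 53310506 to 53375810, plus strand) stood at 66.5, 38.7 and 41.6 CPM in mutant spleens and at 51.4, 87.4, 26.4 and 24.1 CPM in wild type. Wild-type 2 was again the highest spleen and mutant 1 came next, while mutants 2 and 3 lay inside the wild-type range. Its log2 fold change was 0.05 (SE 0.47, adjusted p = 0.935, edgeR), and it turned negative without mutant 1, wild-type 3 or wild-type 4, and when scaled by library size alone.

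Mxd3, the antagonist known from S phase cells, had a higher mean in mutant but overlapped with wild-type 2. Mxd3 (chromosome 13, 55325168 to 55329730, minus strand) stood at 30.8, 50.1 and 27.8 CPM in mutant spleens and at 15.3, 32.7, 4.51 and 6.21 CPM in wild type. The log2 fold change was 1.31 (SE 0.65, adjusted p = 0.119, edgeR). Without wild-type 2 it was 2.08 (adjusted p = 0.0147, in a range of 0.00636 to 0.335 over its alternatives). Mxd3 shares 105 bases of its span with Prelid1 on the opposite strand, and the strand setting of counting is not given, so its level carries that uncertainty.

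Mxd4 (chromosome 5, 34176580 to 34187710, minus strand), an antagonist of mature and resting cells, was the steadiest of the 4. It stood at 35.6, 23.5 and 39.3 CPM in mutant spleens and at 35.2, 40.8, 39.0 and 46.4 CPM in wild type. Mutant 2 alone was below the wild-type range, and the log2 fold change was -0.30 (SE 0.20, adjusted p = 0.24, edgeR).

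Per kb, the makeup of the antagonist pool differed between single spleens. Mxd1 made up 51.4%, 16.7% and 20.7% of the 4 antagonists in mutants 1 to 3 and 47.6%, 48.3%, 47.6% and 40.7% in wild-type spleens 1 to 4. Mxd3 made up 26.6%, 63.4% and 44.5% in mutant spleens and 21.3%, 26.4%, 10.3% and 13.7% in wild type. In mutants 2 and 3 Mxd3 was the larger component and Mxd1 was low, whereas mutant 1 had a makeup close to that of wild-type 2.

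Myb, the founding gene of its family, had the largest increase among the 10 genes, 6.61-fold. Myb (chromosome 10, 21124930 to 21160984, minus strand) stood at 189, 451 and 333 CPM in mutants 1 to 3, against 57.8, 50.4, 33.7 and 54.3 CPM in wild-type spleens 1 to 4. No mutant spleen came near the wild-type range, and mutant 1 was the lowest of the 3, as it was for Myc. The log2 fold change was 2.72 (SE 0.32, adjusted p = 4.75e-04, edgeR). Immature T cell markers were also higher in mutant. Their list medians were 2.94, 4.06 and 3.62 on the log2 scale above the wild-type mean in mutants 1 to 3, the same order as Myb. In wild type the order differed, with the list median highest in wild-type 3 (0.20), where Myb was lowest. The part of immature T cells in the Myb and Myc results was not tested.

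Mybl2, the family member of dividing cells, rose 2.99-fold, with a call that rested on thin support. Mybl2 (chromosome 2, 163054635 to 163084687, plus strand) stood at 106, 140 and 114 CPM in mutant spleens and at 51.5, 77.1, 14.9 and 17.1 CPM in wild type. The groups did not overlap, but wild-type 1 and 2 were several times above wild-type 3 and 4. The log2 fold change was 1.58 (SE 0.56, adjusted p = 0.0415, edgeR). The call was lost without mutant 1, mutant 2, mutant 3, wild-type 1, wild-type 3 or wild-type 4, where adjusted p ran between 0.0569 and 0.126, while without wild-type 1 and 2 together the log2 fold change was 2.90 (adjusted p = 0.00387, in a range of 0.00387 to 0.126 over its alternatives).

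Mybl1 (chromosome 1, 9667411 to 9700209, minus strand) was the lowest of its family and did not pass. It stood at 13.5, 25.4 and 8.86 CPM in mutant spleens and at 5.13, 14.0, 6.51 and 9.41 CPM in wild type. Mutants 1 and 3 lay inside the wild-type range, and the log2 fold change was 0.86 (SE 0.45, adjusted p = 0.134, edgeR). Per kb, Myb made up 61.2%, 73.3% and 72.9% of the family level in mutant and 50.3%, 35.8%, 62.3% and 68.7% in wild type. Mybl2 was the larger of both only in wild-type 2, where it made up 56.6%. The shares of Myb and Mybl2 overlapped between the groups. The share of Mybl1 was 3.32%, 3.13% and 1.47% in mutant and 3.38%, 7.52%, 9.12% and 9.01% in wild type, which did not overlap, with mutant 1 and wild-type 1 close together.

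Promoter sequence was taken from RefSeq on build GRCm38.p6, where the table covers 250 bases before and 50 after each gene start and holds 10 entries for 8 of the 10 genes, with no entry for Myc or Mybl1. Strings were searched on both strands. The E-box of MYC and MAX was searched as CACGTG. The strings of the E2F type were TTGGCGG as the first, TTGGCGC as the second, TTCCCGC as the third and TTCGCGC as the fourth. The core of the MYB site was searched as TAACNG. The stretches below belong to both Myb family genes that rose, which each hold TTGGCGG on the plus orientation just before the gene start (first base at -15 for Mybl2 and -11 for Myb), and to Mycn, which fell and holds TTGGCGC at -182 and -167 with TTCGCGC on the other strand overlapping the first of them. Capitals mark these strings, and each line runs 5′ to 3′ along the gene. Myb is shown at chr10:21160985-21161044 on the minus strand, Mybl2 at chr2:163054575-163054634 on the plus strand, and Mycn at chr12:12941977-12942036 on the minus strand.
Myb: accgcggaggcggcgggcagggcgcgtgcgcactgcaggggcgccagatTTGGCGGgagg
Mybl2: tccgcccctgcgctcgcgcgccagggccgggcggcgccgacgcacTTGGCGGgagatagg
Mycn: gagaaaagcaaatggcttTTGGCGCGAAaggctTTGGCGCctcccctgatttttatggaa

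Of all 32851 promoter entries, 2.74% hold TTGGCGG, 2.45% hold TTGGCGC, 1.59% hold TTCGCGC and 4.60% hold TTCCCGC, which among the 8 genes with an entry was found in Mxd3. TAACNG was found in 4 of the 10 entries, those of Mybl2, Mycn, Mxd3 and Mxi1, and in 23.3% of all entries. CACGTG was found in 7.15% of all entries and in those of Max and Mxd4, both among the genes that did not pass. They are shown because the E-box is the string that the network's own dimers bind. Max is at chr12:76962246-76962305 on the minus strand, where the string spans the gene start, and Mxd4 at chr5:34187891-34187950 on the minus strand. These matches describe letters only and say nothing of binding.
Max: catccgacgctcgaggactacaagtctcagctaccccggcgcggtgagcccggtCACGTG
Mxd4: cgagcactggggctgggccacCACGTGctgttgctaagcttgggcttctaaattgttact

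Across spleens some of the 10 genes shared patterns that cut across their families. Mxd3 and Mybl2 were the closest pair, with a root mean square difference of 0.241 on the log2 scale between their centred profiles over the 7 spleens. Myc and Myb were next at 0.462, then Max and Mxd4 at 0.468 and Mxd1 and Mxi1 at 0.566. Myc and Myb both differed between the groups, but wild-type 3 was the highest wild-type spleen for Myc and the lowest for Myb. Genes that vary little are close on this measure even when they do not move together. Max and Mxd4 went opposite ways relative to the wild-type mean, at 0.43 and -0.77 in mutant 2 and at -0.26 and 0.21 in wild-type 4. Mxd1, Mxi1, Mxd3 and Mybl2 all had wild-type 2 as their highest and wild-type 1 as their second wild-type spleen. Erythroid markers had that order too, with summed levels of 32720.5, 81845, 5915 and 7019 CPM in wild-type spleens 1 to 4, and with 43922, 9039.8 and 11946 CPM in mutants 1 to 3. Neutrophil markers also had wild-type 2 and then wild-type 1 highest, at 1121.6, 1779, 1041 and 700.3 CPM in wild-type spleens 1 to 4. In mutants 1 to 3 they stood at 520, 667 and 22.1 CPM, with mutant 2 highest. Each of the 14 erythroid markers, which include globin pairs with identical counts, overlapped between the groups. In mutant, Mxd1 and Mxi1 had the order of the erythroid sum in having mutant 1 highest, whereas Mxd3 and Mybl2 had mutant 2 highest.

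DNA replication genes also moved with Mybl2 and Mxd3, with 8 of 10 higher in mutant, beside 28.5% of all genes. Their summed level was 6195, 6547 and 5957 CPM in mutant and 2609.9, 3888, 955 and 1140.0 CPM in wild type, with wild-type 2 and 1 above wild-type 3 and 4. The part of erythroid content, of neutrophil content and of dividing cells in the values of Mxd1, Mxi1, Mxd3 and Mybl2 was not tested. Without wild-type 1 and 2, the log2 fold change was 0.53 for Mxd1 (adjusted p = 0.571), 0.95 for Mxi1 (adjusted p = 0.0539) and 2.75 for Mxd3 (adjusted p = 0.00636) by edgeR, where the ranges over all alternatives ran from 0.068 to 0.927, from 0.0539 to 0.953 and from 0.00636 to 0.335.

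**Figure D3:**
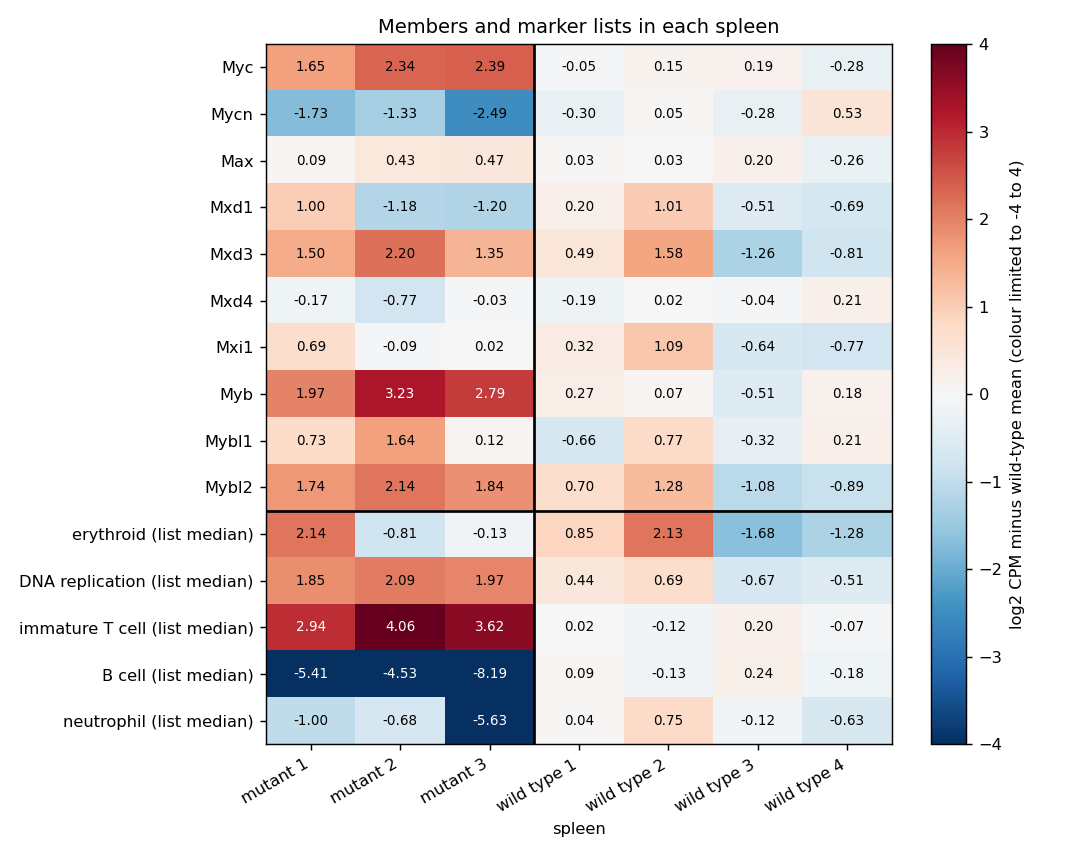
Log2 CPM minus the wild-type mean (colour and printed value) for the 10 genes and, below the line, the medians of 5 marker lists, in 3 mutant spleens left of 4 wild-type spleens. Myc and Myb are positive in all mutants and near 0 in wild type, whereas Mxd1 and Mxi1 are highest in mutant 1 and wild-type 2, the spleens with the highest erythroid medians.

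Outside the set, the genes with the nearest profiles among those with a mean of 5 CPM or more were Pa2g4 (root mean square difference 0.0970) and Ung (0.114) for Myc, and Trip13 (0.192) and Kif7 (0.210) for Myb. For Mybl2 they were Birc5 (0.0890) and Kif22 (0.112), and for Mxd3 Neil3 (0.127) and Nusap1 (0.157). Mxd1 was nearest to Pqlc1 (0.145) and Rffl (0.150), and Mxi1 to Rnf10 (0.127) and Tbcel (0.128). Max was nearest to Dgcr14 (0.0323) and Dpf2 (0.0375), and Mxd4 to Ctnnal1 (0.0831) and Tmbim4 (0.107). Mycn had Gucy1b3 (0.189) and Prrx1 (0.190), and Mybl1, with the most isolated profile, Ntn1 (0.341) and Msh5 (0.373). All distances are over the 7 spleens, and many genes separate the groups, so a near profile is a description only.

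Ratios of counts within a spleen do not depend on the scaling between libraries, and gene length drops out of their difference. The log2 ratio of Myc to Mxd4 was 2.99, 4.28 and 3.58 in mutant and 1.30, 1.29, 1.39 and 0.67 in wild type, a difference of 2.45, and that of Myc to Mxi1 was 2.09, 3.56 and 3.50 in mutant and 0.75, 0.19, 1.96 and 1.61 in wild type, a difference of 1.92. Both were higher in every mutant spleen than in any wild-type spleen. The exact permutation test over spleens (two-sided, 3 against 4) gave p = 0.0571 for each, the smallest it can give, and 0.1 adjusted over the 7 ratios computed. The ratio of Myc to Mxd1 was 0.43 in mutant 1 and 3.30 and 3.37 in mutants 2 and 3, against -0.47, -1.08, 0.47 and 0.19 in wild type, and mutant 1 overlapped with wild type (difference 2.59, exact permutation p = 0.114, adjusted 0.16).

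The Myc to Mxd3 ratio was 3.20, 3.18 and 4.08 in mutant and 2.50, 1.60, 4.50 and 3.57 in wild type. It overlapped widely (difference 0.44, exact permutation p = 0.629, adjusted 0.629) and the difference changed sign without wild-type 2 (-0.040). Myc to Mycn differed by 4.17 on the log2 scale and Myb to Mybl1 by 1.83, both without overlap (exact permutation p = 0.0571, adjusted 0.1, each). Myb to Mybl2 differed by 0.76 with overlap (exact permutation p = 0.343, adjusted 0.4). Against the summed 4 antagonists per kb, Myc stood at 1.32, 3.12 and 4.08 in mutant and at 0.656, 0.435, 1.26 and 0.883 in wild type. Mutant 1 and wild-type 3 were nearly equal on that measure.

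**Figure D4:**
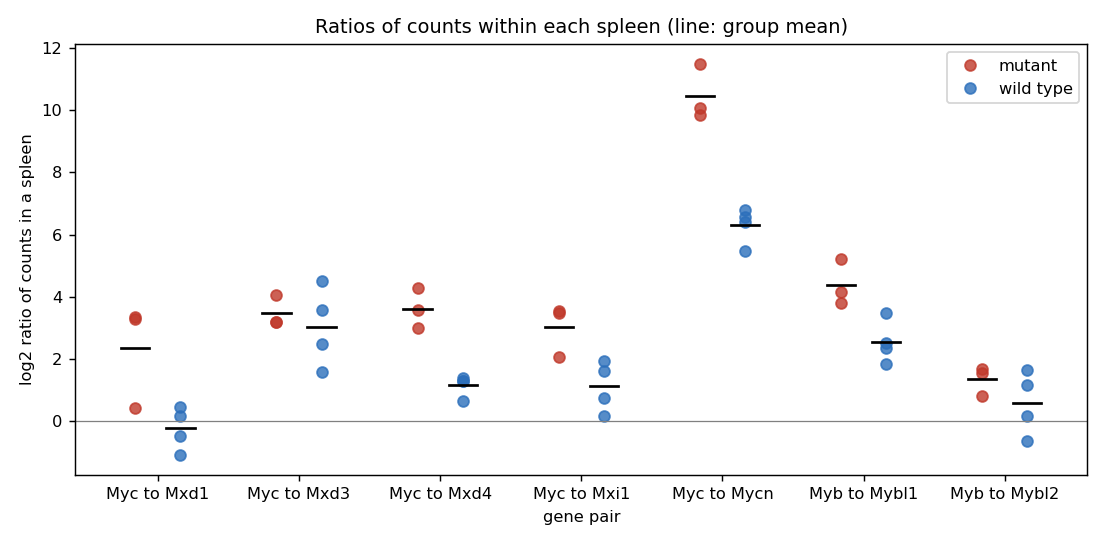
Log2 ratios of counts for 7 gene pairs (vertical axis), 1 point per spleen with a line at the group mean, mutant left of wild type. The groups are apart for Myc to Mxd4, Mxi1 and Mycn and for Myb to Mybl1, and overlap for Myc to Mxd1, Myc to Mxd3 and Myb to Mybl2.

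In the rest of the Max network, Mycl, Mlxip and Mnt fell and Mlx rose. Of 7 listed genes 6 were tested, so 4 of 6 were called, close to the 57.4% over all genes. By direction 3 were lower and 1 higher, beside 28.9% and 28.5% of all genes. The median log2 fold change was -0.53, beside -0.02 over all genes. Beside Mycl, the genes that fell were Mlxip, a glucose-responsive factor that pairs with MLX (68.5 ± 3.92 CPM in mutant and 214 ± 45.0 CPM in wild type, log2 fold change -1.65, SE 0.19), and Mnt, the broadly expressed repressor that binds MAX (32.1 ± 4.34 CPM in mutant and 53.3 ± 3.39 CPM in wild type, -0.73, SE 0.14). Mlx, a protein related to MAX, rose by 0.52 (SE 0.14, adjusted p = 0.0166, edgeR). With library totals as the only scaling, which puts the median of all genes at -0.26, Mlx no longer passed. Mga stood at -0.32 (SE 0.14) and Zbtb17, through which MYC represses genes, at 0.45 (SE 0.17, adjusted p = 0.0516, edgeR).

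Genes raised by MYC were higher almost throughout. Of 30 listed targets 28 rose and 1 fell, beside 28.5% and 28.9% of all genes tested, and the median log2 fold change was 1.85. Among the 28, changes ran from 1.32 (Hspe1, a mitochondrial chaperonin) to 2.40 (Srm, spermidine synthase). Nop58, a core protein of the particles that methylate ribosomal RNA, stood at 430 ± 60.5 CPM in mutant and 92.9 ± 6.51 CPM in wild type (log2 fold change 2.21, SE 0.15, adjusted p = 1.45e-04, edgeR). Nme1, a nucleoside diphosphate kinase, rose by 2.01 (SE 0.17), and Eif4e, the protein that binds the messenger RNA cap, by 1.55 (SE 0.13). Per spleen, the list median above the wild-type mean was 1.47, 1.80 and 2.15 in mutants 1 to 3 and -0.07 to 0.10 in wild type. Mutant 1 was lowest here as it was for Myc.

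The target that fell was Ccnd2, cyclin D2, at 133, 28.6 and 78.4 CPM in mutant and 203 to 235 CPM in wild type (log2 fold change -1.47, SE 0.45, adjusted p = 0.024, edgeR). Its call was lost without mutant 3, without wild-type 4, and without wild-type 1 and 2 together. Odc1, ornithine decarboxylase, did not pass, at 746, 438 and 480 CPM in mutant and 369, 732, 143 and 138 CPM in wild type, and it was high in wild-type 2. Many of these targets are used by all growing and dividing cells. DNA replication genes were higher too, as given above, and the part of dividing cells in the target values was not tested.

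Of 14 cofactors and regulators of MYC stability, 6 rose and the other 8 did not pass, with a median log2 fold change of 0.56. Over all genes 28.5% were higher and 57.4% were called, so the share called here is below that over all genes. Ruvbl1 and Ruvbl2, paired ATPases of chromatin complexes that MYC recruits, rose by 1.89 (SE 0.16) and 1.86 (SE 0.17), and Skp2, a ubiquitin ligase subunit that binds MYC, by 1.89 (SE 0.17). Ruvbl1 stood at 140, 141 and 194 CPM in mutant spleens and at 37.4 to 47.4 CPM in wild type. Fbxw7, the ligase subunit that marks phosphorylated MYC for destruction, stood at 0.27 (SE 0.12, adjusted p = 0.0747, edgeR), and Gsk3b and Huwe1, both of which act in MYC turnover, stood at 0.07 (SE 0.11) and 0.07 (SE 0.14). Over the 17 alternatives, 5 to 8 of the list were higher.

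The MuvB core binds MYBL2 in dividing cells and, in resting cells, the pocket proteins and E2F factors of the DREAM repressor. Of 12 MuvB and DREAM genes, 6 rose and 1 fell, beside 28.5% higher and 28.9% lower over all genes, with a median of 0.87. The share called in either direction is close to the 57.4% over all genes. Tfdp1, the DNA-binding partner of E2F factors, stood at 457 ± 87.1 CPM in mutant and 100.1 ± 26.9 CPM in wild type (log2 fold change 2.19, SE 0.25, adjusted p = 4.32e-04, edgeR). Lin9, a MuvB core subunit, rose by 1.34 (SE 0.21), and Rbl2, the pocket protein of resting cells, fell by 0.77 (SE 0.11). The core subunits Lin37 and Lin52 did not pass, at 0.15 (SE 0.19) and 0.08 (SE 0.16).

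Of 16 G2/M genes activated by MYBL2 with MuvB, 12 rose, beside 28.5% of all genes, and the other 4 did not pass. All 16 were above wild type without overlap, beside 29.2% of all genes. Their median log2 fold change was 1.83. The count was 8 without mutant 2 and 16 without wild-type 2, with DESeq2, with limma-voom and with limma on either deposited CPM scale. Without wild-type 1 and 2 the count was also 16 and the median was 2.99. Cdc20, the activator of the anaphase ligase, rose by 2.46 (SE 0.38), and Bub1 and Plk1, kinases of mitosis, rose by 2.11 (SE 0.43) and 2.26 (SE 0.49). In single spleens, the median of these genes, on the log2 scale and centred on wild type, was 2.06, 2.22 and 2.00 in mutants 1 to 3 and 0.55, 1.20, -1.07 and -0.60 in wild-type spleens 1 to 4. Mutant 2 and wild-type 2 were the highest of their groups, as they were for Mybl2.

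Among genes known as MYB targets, Gata3 and Rag2 rose and Bcl2 and Cd34 fell. That is 4 of 8, no more than the background, where 28.5% of all genes were higher and 28.9% lower. The median log2 fold change was -0.77, but it was -1.77 with limma-voom and -1.78 with limma on deposited CPM plus 0.1, and it ran from -1.34 without mutant 2 to -0.37 without mutant 3. Gata3, a T lineage factor, stood at 64.5, 139 and 92.0 CPM in mutant and 10.2 to 12.9 CPM in wild type (log2 fold change 3.09, SE 0.26), and Rag2, a subunit of the antigen receptor recombinase, at 4.41, 7.44 and 29.1 CPM in mutant and 0.0443 to 0.185 CPM in wild type (6.75, SE 0.83). Gata3 and Rag2 are themselves T lineage genes, and Rag2 is in the immature T cell list. Rag2 was below the count minimum of the filter in every wild-type library and passed it only through the mutant group. The size of its fold change is therefore imprecise. Bcl2, which blocks cell death, was lower at 14.4 ± 3.39 CPM in mutant and 122 ± 20.7 CPM in wild type (-3.09, SE 0.23), and Cd34, a progenitor surface protein, fell by 1.64 (SE 0.41). The other 4 were Kit at -1.68 (SE 0.75), Cd4 at -0.70 (SE 0.26), Mpo at -0.84 (SE 1.00) and Elane at -0.68 (SE 1.03). Mpo and Elane are also in the neutrophil list, and in mutant 3, where that list was lowest, they stood at 0.684 and 0.130 CPM. limma-voom called 4 of the 8 lower.

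**Figure D5:**
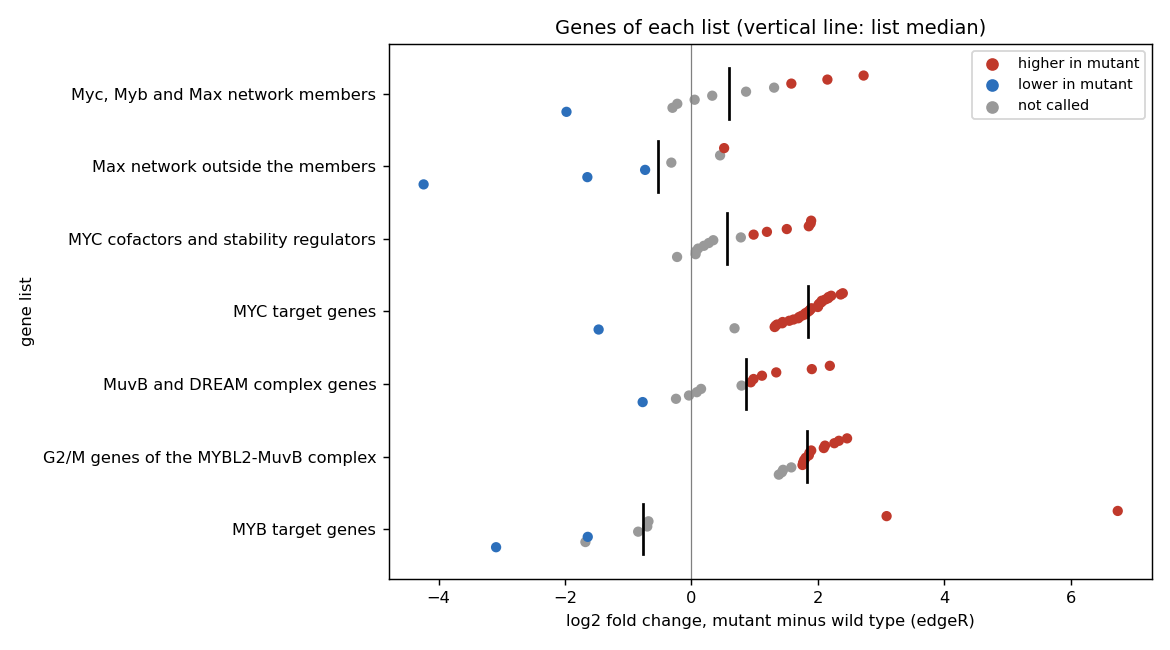
Log2 fold change, mutant minus wild type (horizontal axis), for each tested gene of the 10-gene set and of 6 related lists, coloured by call, with a line at each list median. MYC targets lie together near 1.85 except Ccnd2 and Odc1, and MYB targets spread on both sides of 0.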

How the data were processed

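Whole-spleen RNA was sequenced in 3 mutant and 4 wild-type libraries. The submitters' processing notes name TopHat2 2.0.12, featureCounts of Subread 1.4.6, bcl2fastq 2.17.1.14, edgeR and the mm10 build, without settings or strand handling. As deposited, 1 table holds raw counts for each gene. The authors' second table holds CPM, treated as a score because each column is the counts times 1 constant that includes a TMM factor. It has no value for 4455 genes and served in alternatives only.

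Counts were tested with edgeR 4.0.16 (R 4.3.3) using filterByExpr with a minimum count of 10, TMM factors over the genes tested, group as the only term and a Benjamini-Hochberg adjusted p under 0.05 over all genes. SE is the absolute log2 fold change over the square root of F. A positive log2 fold change is higher in mutant. Printed CPM use the same TMM factors, and centred log2 CPM a prior count of 2. On simulated counts for this comparison, with 199 of 15004 tested genes changed, the test called 57.0% of 4-fold and 5.43% of 2-fold changes. In the real data 57.4% of genes were called, and with that many the adjusted threshold admits larger p-values. The simulated shares therefore do not give the power of the test here. Gene starts in the deposited tables count from 0, and 1 was added.

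The genes, lists and tests were chosen with earlier results of these data known. Named genes were the 10 members, the 3 genes with the smallest p in each related list and the 2 nearest genes by profile, and others were named after their values were seen. Alternatives covered RLE factors, library totals as the only scaling, removal of globin genes, no filter, DESeq2 1.42.0, limma-voom (limma 3.58.1), limma on log2 of deposited CPM plus 1 or 0.1, the replicate number as a block, and libraries left out.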

Additional observations from a re-analysis of the deposited data

Results flagged for a closer look

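Among the 4 wild-type spleens, 1 value stood far from the others. The log2 ratio of Myc to Mxd4 was 0.67 in wild-type 4, against 1.29, 1.30 and 1.39 in the other wild-type spleens, and the gap took up 0.852 of the whole range. Such a gap arises by chance in about 1 of 20 groups, and 17 were examined.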

How the results depend on the processing

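Myc, Myb and Mycn kept their direction and call under each of the 17 alternatives, with log2 fold changes of 1.91 to 2.44, 2.39 to 3.09 and -2.29 to -0.73. Genes called numbered 2923 to 5010 higher and 3011 to 5129 lower. Scaling by library size alone moved the higher share of calls to 38.1%, against 49.7%. The log2 fold change of Mxd1 turned positive without wild-type 1 and 2 (0.53) and ran from -1.28 to 0.22 with 1 library left out. That of Mxi1 was -0.14 with library size alone, -0.035 with the replicate block, and -0.18 to 0.53 with 1 library left out. The Myc to Mxd3 difference was -0.55 without wild-type 1 and 2 and -0.040 to 0.93 with 1 library left out, and the Myb to Mybl2 difference was -0.064 without wild-type 1 and 2. Of the Max network outside the set, 2 genes were called higher with RLE factors, globin genes removed, DESeq2, limma-voom and limma on deposited CPM plus 1 or 0.1, 0 with library size alone, the replicate block or without wild-type 1 and 2, and 1 to 2 with 1 library left out. MYC targets called lower numbered 0 without wild-type 1 and 2 and 0 to 1 with 1 library left out, and MYB targets called lower numbered 4 with limma-voom and limma on deposited CPM plus 1 or 0.1. The cause was not tested. Samples with the same replicate number did not deviate together (r = 0.04, -0.19 and 0.10). So few values cannot exclude a pairing, and the labels state none. The replicate block gave 2950 genes higher and 3140 lower. With it, Mybl2 stood at an adjusted p of 0.0509 in edgeR and the MYB target median at -1.68. The few counts of Mycn limit the precision of its fold change.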
